A study of Mus musculus with 9 samples.

Results

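The genes described here are 9 genes of microglia, the resident macrophages of the brain, measured in mouse hippocampus among 18820 genes in all. They were chosen by name and comprise 4 genes associated with resting, homeostatic microglia (P2ry12, Tmem119, Cx3cr1 and Csf1r) and 5 associated with activation and phagocytosis (Trem2, Tyrobp, Itgam, Aif1 and Cd68). Each had 1 probe set that names a single gene. The samples were 3 hippocampi of mice given Maresin 1 before a tibia fracture operation, 3 of mice with that operation alone and 3 of control mice, all C57BL/6 and 12 to 14 weeks old. Hippocampi of operated mice were taken 72 h after surgery. Maresin 1 is a lipid mediator made by macrophages from docosahexaenoic acid. No label states the Maresin 1 dose, its vehicle, or whether control mice had anaesthesia or a sham operation. The titles call the 3 arrays of a group biological replicates.

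Microglia depend on signalling through the receptor Csf1r for survival and survey the tissue with receptors such as P2ry12, which senses nucleotides, and Cx3cr1, which binds the neuronal chemokine fractalkine. On activation, homeostatic genes such as P2ry12 and Tmem119 typically fall, while Trem2, a lipid-sensing receptor, and its signalling adaptor Tyrobp accompany the shift to a phagocytic state. Itgam encodes the CD11b subunit of complement receptor 3, Aif1 the calcium-binding protein IBA1 used to stain microglia, and Cd68 a glycoprotein of macrophage lysosomes. Itgam and Aif1 are expressed by resting microglia too, so the division into classes is one of emphasis.

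Levels are log2 of the quantile-normalized array intensity plus 16. All 9 genes had a mean level above 5.86, the 95th percentile of the levels of 990 olfactory receptor genes, taken as a guide to background in brain tissue. Aif1 lay barely above it, at 5.98. All 16 other homeostatic microglia genes measured also lay above that level, against 4 of 10 border macrophage markers, 3 of 6 monocyte markers, 2 of 8 lymphocyte markers and 1 of 8 neutrophil markers. The tissue was bulk hippocampus, so fewer microglia and less RNA per microglial cell cannot be told apart. Median deposited intensities ran from 54.1 to 100 between arrays. Correlations between arrays over all genes ran from 0.9909 to 0.9973 after normalization. Control replicates 2 and 3 stood apart in choroid plexus RNA: their summed intensity over 9 choroid plexus markers was 15170 and 19000, against 710.3 to 1047 in the other 7 arrays. Comparisons with control are therefore also given against control replicate 1 alone, as differences without a test for the other gene lists, a choice made for those lists after the data were seen.

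Among the homeostatic genes, P2ry12 stood at 9.11, 8.84 and 8.99 in the Maresin 1 arrays (replicates 1 to 3), 9.02, 8.79 and 9.01 in the surgery arrays, and 8.69, 8.86 and 8.87 in the control arrays. The Maresin 1 mean was the highest, and each pair of groups overlapped. Tmem119, a membrane protein used as a microglial marker, was at 8.53, 8.19 and 8.20 with Maresin 1, 8.31, 8.30 and 8.46 after surgery, and 8.18, 8.40 and 8.13 in control. Its highest value came from Maresin 1 replicate 1, and the other 2 arrays of that group lay within the control range.

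Cx3cr1 was at 9.17, 8.95 and 9.03 with Maresin 1, 9.07, 9.11 and 8.97 after surgery, and 8.97, 9.14 and 9.17 in control. The group means lay within 0.047 of each other, less than the pooled within-group SD of 0.097. Csf1r, the receptor for colony stimulating factor 1 and interleukin 34, was at 9.93, 9.59 and 9.66 with Maresin 1, 9.71, 9.87 and 9.70 after surgery, and 9.65, 9.63 and 9.67 in control. All surgery arrays lay above all control arrays, by a narrow margin, while the Maresin 1 arrays spread over 0.34 and covered the other groups.

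Among the activation genes, Trem2 was at 8.64, 8.40 and 8.40 with Maresin 1, 8.54, 8.43 and 8.24 after surgery, and 8.27, 8.22 and 8.26 in control. Tyrobp was at 8.44, 8.29 and 8.21 with Maresin 1, 8.23, 8.42 and 8.13 after surgery, and 8.12, 8.17 and 8.15 in control. For both receptor and adaptor the group means ran in the order Maresin 1, surgery, control, and the 3 Maresin 1 arrays lay above all controls while surgery replicate 3 did not. The controls were tight, with a range of 0.052 for Trem2 and 0.046 for Tyrobp, against 0.24 and 0.23 with Maresin 1 and 0.29 for both genes after surgery.

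Itgam was at 8.18, 7.95 and 8.07 with Maresin 1, 8.002, 8.25 and 8.11 after surgery, and 7.83, 7.72 and 7.94 in control. It was the only one of the 9 genes for which every operated mouse, with or without Maresin 1, lay above every control mouse. Maresin 1 replicate 2, at 7.947, and control replicate 3, at 7.945, were the nearest arrays of the groups and practically equal.

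Cd68 was at 8.46, 8.19 and 8.25 with Maresin 1, 8.41, 8.50 and 8.28 after surgery, and 8.26, 8.18 and 8.49 in control, with full overlap. Aif1 was at 5.96, 5.95 and 5.79 with Maresin 1, 6.02, 6.25 and 5.90 after surgery, and 6.03, 5.93 and 5.98 in control. Its highest value came from surgery replicate 2, and its lowest, from Maresin 1 replicate 3, lay below the olfactory receptor level.

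**Figure D1:**
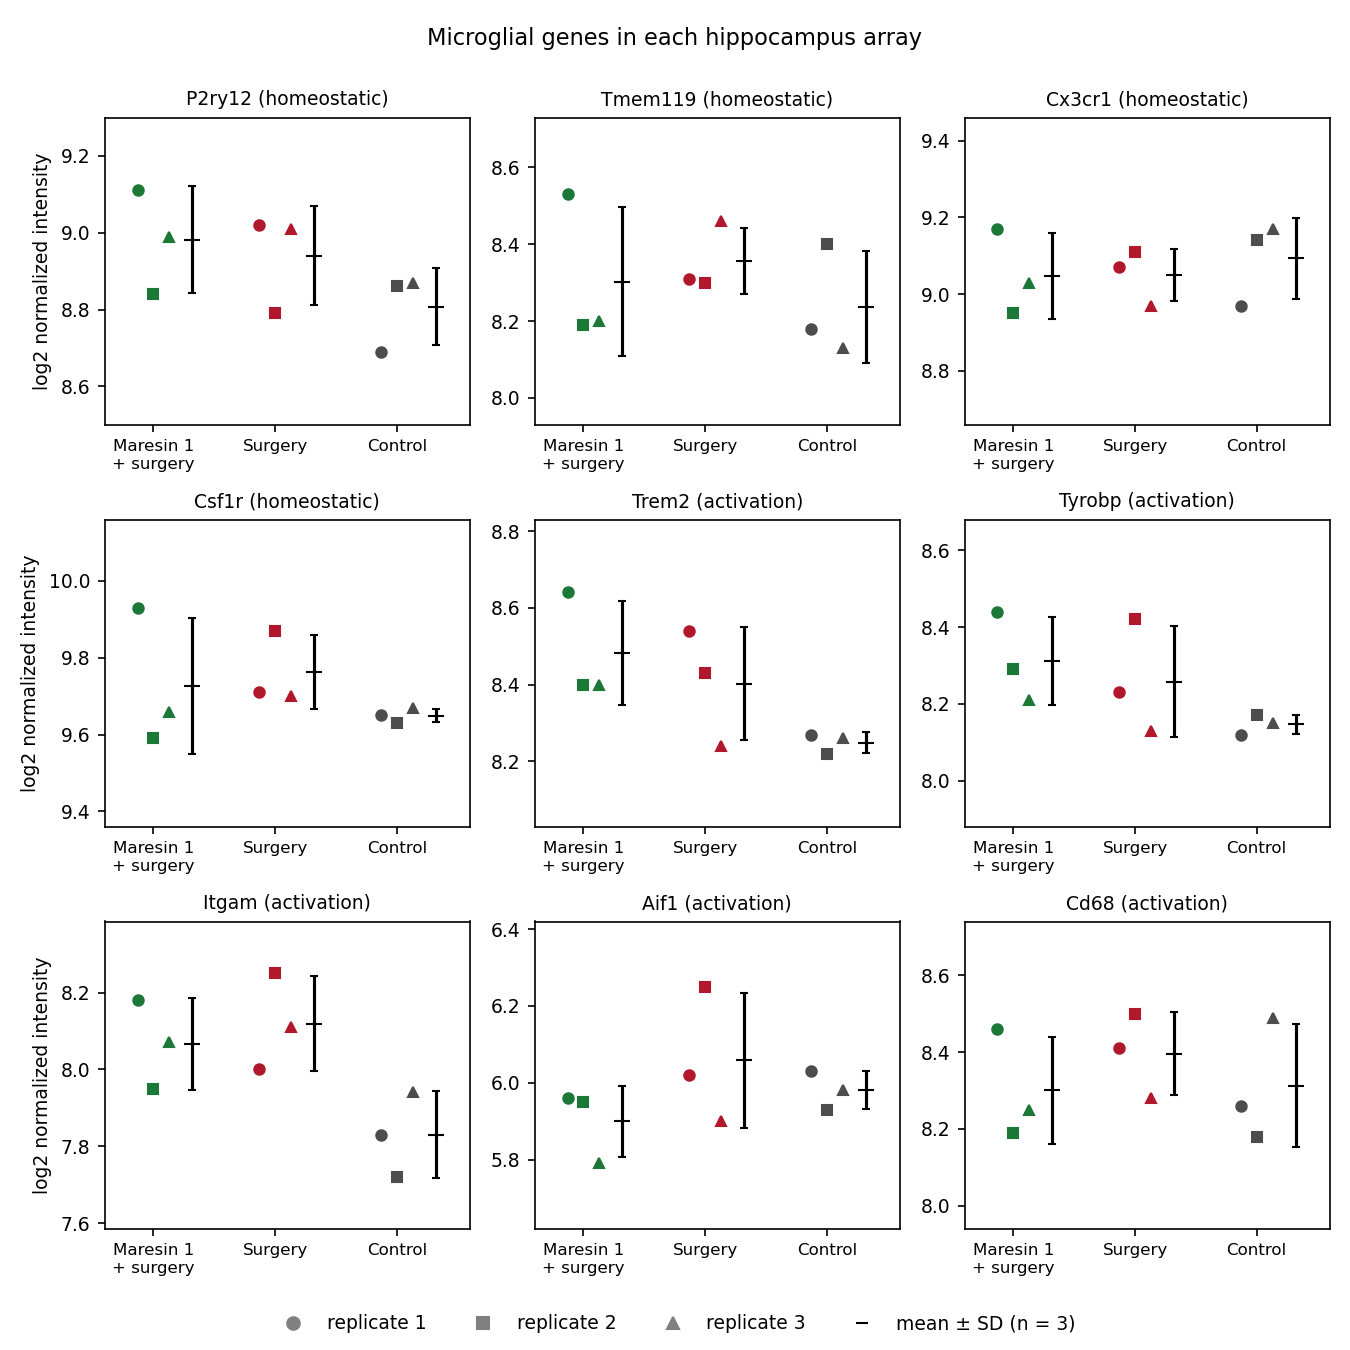
Log2 normalized intensity of the 9 genes (vertical axes, each spanning 0.8) in the Maresin 1, surgery and control arrays (points shaped by replicate number), with the group mean ± SD (n = 3) beside them. Itgam is the gene whose operated arrays all lie above its control arrays, and the Csf1r, Trem2 and Tyrobp controls lie close together.

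Promoter sequences are printed for 3 members: Itgam and Trem2, which had the smallest p of the 9 in the comparisons with control, and Cx3cr1, whose difference from control was below 0 in both. They are the RefSeq windows on build GRCm38.p6 from 250 bases before to 50 bases after the annotated start, 5′ to 3′. Capitals mark the letters GAGGAA or its reverse complement TTCCTC, the core that the myeloid transcription factor PU.1 prefers, with a following G (GAGGAAG) or preceding C (CTTCCTC) also in capitals.
Itgam, chr7:128062390-128062689, plus strand: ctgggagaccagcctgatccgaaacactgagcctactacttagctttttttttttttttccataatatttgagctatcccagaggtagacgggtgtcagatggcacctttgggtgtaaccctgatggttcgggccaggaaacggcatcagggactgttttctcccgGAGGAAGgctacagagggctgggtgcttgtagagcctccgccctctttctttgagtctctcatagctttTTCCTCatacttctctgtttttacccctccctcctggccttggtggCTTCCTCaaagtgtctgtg
Trem2, chr17:48346151-48346450, plus strand: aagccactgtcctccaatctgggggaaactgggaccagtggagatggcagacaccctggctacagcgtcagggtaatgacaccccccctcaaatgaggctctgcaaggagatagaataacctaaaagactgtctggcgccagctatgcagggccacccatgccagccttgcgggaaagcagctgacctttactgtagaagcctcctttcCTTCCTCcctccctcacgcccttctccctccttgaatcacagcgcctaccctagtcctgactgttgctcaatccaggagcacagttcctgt
Cx3cr1, chr9:120068247-120068546, minus strand: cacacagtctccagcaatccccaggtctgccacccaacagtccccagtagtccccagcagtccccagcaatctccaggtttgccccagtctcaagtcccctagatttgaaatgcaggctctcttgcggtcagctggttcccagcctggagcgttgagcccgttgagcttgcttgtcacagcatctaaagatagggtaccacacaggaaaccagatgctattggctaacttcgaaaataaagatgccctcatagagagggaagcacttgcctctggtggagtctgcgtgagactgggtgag

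The 6 letters, on either strand, occurred in the promoters of 4 of the 6 member genes with a window in the table (Itgam, Trem2, Aif1 and Cd68), and not in those of P2ry12 and Cx3cr1, against 28.3% of all 32851 windows. The 7 letters, which contain the 6, occurred in the Itgam and Trem2 windows, against 13.6% of all windows. The Itgam window held 3 matches of the 6 letters, beginning at positions -84, -15 and 33 from the start. The Trem2 window held 1, whose 6 letters begin at -40 and are part of the longer match. For this match and the Itgam match at 33, the preceding C of the longer match lies before the stated position. These are matches of letters, and binding was not measured.

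The surgery arrays were set against control to ask how the microglial genes stood 72 h after the fracture. The means of 8 of the 9 genes were higher after surgery, among 58.4% of all genes, and Cx3cr1 was lower. The median log2 difference was 0.12 for the 4 homeostatic genes and 0.11 for the 5 activation genes, against 0.0195 for all genes. Without surgery replicate 2 the activation median was 0.034 and the homeostatic median 0.10. None of the 9 passed an adjusted p of 0.05, as none of the 18820 genes did (0% called by limma), while 1 of the 9 (Itgam) and 1168 of all genes (6.21%) had an unadjusted p under 0.05.

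Itgam averaged 8.12 ± 0.12 after surgery and 7.83 ± 0.11 in control (SD, n = 3 each). That is a difference of 22.2% on the scale of intensity plus 16 (log2 0.29, SE 0.092, 95% interval 0.090 to 0.49, limma adjusted p = 0.68). Its groups did not overlap, as for Csf1r (log2 0.11, SE 0.081), so 2 of the 9 genes lay wholly above control, where 7.71% of all genes did and 11.5% did not overlap in either direction. Trem2 differed by 0.15 (SE 0.089), P2ry12 by 0.13 (SE 0.088) and Tmem119 by 0.12 (SE 0.10). Tyrobp differed by 0.11, Cd68 by 0.084 and Aif1 by 0.077, and the intervals of all members but Itgam include 0. Surgery replicate 2 carried part of these values: without it Tyrobp differed by 0.033, Cd68 by 0.034, Csf1r by 0.057 and Aif1 by -0.0191, whereas Itgam still differed by 0.23 and P2ry12, at 0.21, no longer overlapped. Cd68 differed by 0.0189 without control replicate 2 and by 0.17 without control replicate 3. Cx3cr1 differed by -0.044 (SE 0.076).

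Against control replicate 1 alone, the surgery arrays differed by 0.29 for Itgam, 0.25 for P2ry12, 0.18 for Tmem119, 0.14 for Tyrobp and 0.13 for Trem2 and Cd68. All 9 means then stood higher after surgery, where 60.4% of all genes did, Cx3cr1 included at 0.077, with Csf1r at 0.11 and Aif1 at 0.026. This value for each gene rests on a single control array. Control replicate 1 had the lowest mean deviation of the 9 arrays for the homeostatic members (-0.12) and the other homeostatic microglia genes (-0.11). The same held for the astrocyte markers (-0.19), but not for the activation members (-0.09). The endothelial markers also stood higher after surgery than in control, 8 of 8 (6 without overlap, median 0.37). Against control replicate 1 alone they were 8 of 8 higher, with a median of 0.32. Of the 8 astrocyte markers, 7 stood higher after surgery than in control (1 without overlap, median 0.094). Against control replicate 1 alone 8 of 8 astrocyte markers did (median 0.227). The part of either list in the microglial values was not tested.

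Whether Maresin 1 altered the microglial genes of operated mice was asked by setting treated against untreated operated mice. The 9 differences ran from -0.16 for Aif1 to 0.080 for Trem2, with 3 above 0, as for 41.7% of all genes, and 6 below. The median was -0.0195 for homeostatic and -0.053 for activation genes, against -0.0191 for all genes. Leaving out 1 array at a time moved these medians between -0.10 and 0.039 for the homeostatic genes, the ends being without Maresin 1 replicates 1 and 2. For the activation genes they moved between -0.11, without Maresin 1 replicate 1, and 0.0116, without surgery replicate 2. No gene of the 9 was called by limma (0% of all genes called), none had an unadjusted p under 0.05 (5.66% of all genes), and the groups overlapped for all 9, where 13% of all genes did not overlap (4.79% wholly higher).

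Aif1 averaged 5.90 ± 0.092 with Maresin 1 and 6.06 ± 0.18 after surgery (SD, n = 3 each), a difference of -0.16 (SE 0.11, 95% interval -0.39 to 0.068, limma adjusted p = 0.878). Cd68 differed by -0.096, with an interval of -0.31 to 0.12. Itgam, the gene most above control after surgery, differed by -0.053, with an interval of -0.25 to 0.15. Trem2 and Tyrobp, at 0.080 and 0.054, had intervals of -0.11 to 0.27 and -0.13 to 0.24. Cx3cr1 differed by -0.00316, P2ry12 by 0.041, Csf1r by -0.036 and Tmem119 by -0.053, each smaller than its own within-group SD. Over the 9 genes the intervals reached from -0.39 to 0.27. Maresin 1 replicate 1 weighed on these values: without it Tmem119 was at -0.165, Cd68 at -0.17 and Csf1r at -0.14, each then wholly below the surgery arrays, and Trem2 was at 0.00105.

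Treated operated mice were also set against mice without surgery. This comparison shares its Maresin 1 arrays with the preceding comparison and its controls with the surgery comparison, so its values are not independent of theirs. Itgam and Trem2 were the members furthest above control, while Aif1, Cd68 and Cx3cr1 stood slightly below control. The means of 6 of the 9 were higher, among 49% of all genes. None of the 9 was called (0.085% of all genes were, 13 of them higher and 3 lower), 2 of 9 had an unadjusted p under 0.05 (11.5% of all genes), and 3 of 9 lay wholly above control, where 7.61% of all genes did and 14.3% did not overlap in either direction. The median was 0.072 for homeostatic and 0.17 for activation genes, against -0.00319 for all genes.

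Itgam averaged 8.07 ± 0.12 with Maresin 1 and 7.83 ± 0.11 in control (log2 0.24, SE 0.092, limma adjusted p = 0.331). Trem2 averaged 8.48 ± 0.14 with Maresin 1 and 8.25 ± 0.027 in control (log2 0.23, SE 0.089, limma adjusted p = 0.32; SD, n = 3 each). Tyrobp averaged 8.31 ± 0.12 with Maresin 1 and 8.15 ± 0.024 in control, a difference of 0.17 (SE 0.086). The 3 genes stayed wholly above control without Maresin 1 replicate 1, by 0.18, 0.16 and 0.10, with no unadjusted p under 0.05. With arrays scaled to one median instead of quantile normalization, these 3 overlapped with control, at 0.25, 0.26 and 0.20.

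P2ry12 differed by 0.17 (SE 0.088, limma adjusted p = 0.483), Csf1r by 0.077 and Tmem119 by 0.066. Without Maresin 1 replicate 1 these were 0.11, -0.024 and -0.0455, so for Csf1r and Tmem119 that array decided the sign. Cx3cr1 differed by -0.047, Cd68 by -0.0122 and Aif1 by -0.082, with intervals that include 0. Against control replicate 1 alone P2ry12 was at 0.29, Itgam at 0.24, Trem2 at 0.21, Tyrobp at 0.19, Tmem119 at 0.13, Csf1r at 0.078, Cx3cr1 at 0.074, Cd68 at 0.038 and Aif1 at -0.13. In this comparison too the endothelial markers stood higher, 8 of 8 (5 without overlap, median 0.40). Against control replicate 1 alone they were 8 of 8 higher, with a median of 0.35. The astrocyte markers stood higher as well, 8 of 8 (0 without overlap, median 0.118). Against control replicate 1 alone 8 of 8 astrocyte markers did (median 0.275).

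**Figure D2:**
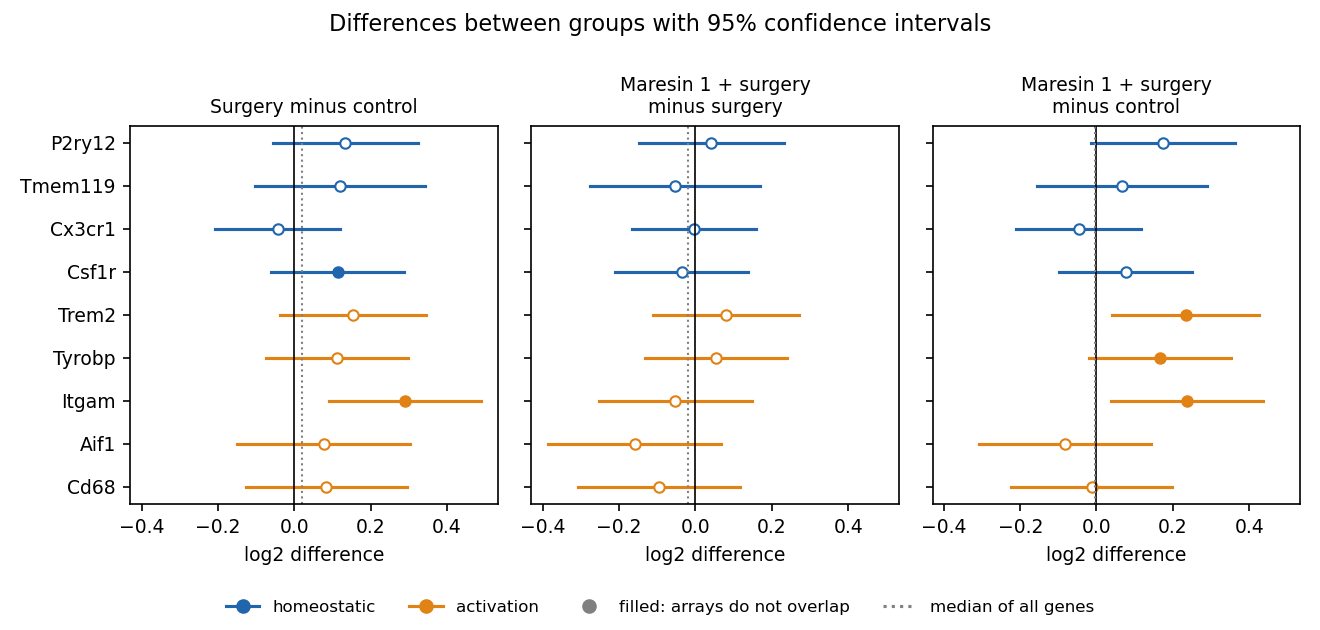
Log2 difference (horizontal axes) of each of the 9 genes in the 3 comparisons, with 95% confidence intervals from the limma model over 9 arrays, coloured by class. Filled points mark genes whose arrays do not overlap between the groups, which are 2 for surgery against control, 0 for Maresin 1 against surgery and 3 for Maresin 1 against control; the dotted line is the median of all genes.

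The 2 classes were set against each other within each array, as the mean deviation of the 4 homeostatic genes minus that of the 5 activation genes. This balance was 0.04, -0.07 and 0.01 in the Maresin 1 arrays, -0.02, -0.16 and 0.09 in the surgery arrays, and -0.04, 0.16 and -0.01 in the control arrays. The groups overlapped fully, and their means of -0.01 ± 0.06 with Maresin 1, -0.03 ± 0.13 after surgery and 0.03 ± 0.11 in control (SD, n = 3 each) differed by less than the spread within the surgery and control groups. Surgery replicate 2 leaned furthest to the activation side and control replicate 2 furthest to the homeostatic side.

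Much of the variation ran between arrays of the same group. Maresin 1 replicate 1 had the highest value of the 9 arrays for 5 of the 9 genes (P2ry12, Tmem119, Csf1r, Trem2 and Tyrobp), where it was highest for 8.63% of all genes, and 8 of the 9 lay above their own mean there. Surgery replicate 2 was highest for 3 (Itgam, Aif1 and Cd68), against 7.11% of all genes, and control replicate 3 for Cx3cr1. The pooled within-group SD of the 9 genes ran from 0.097 to 0.15, above the median of 0.086 over the 5681 genes with a mean level of 8 to 10. Aif1 (SD 0.118), with a mean level of 5.98, lies below those levels, so for it the comparison is not at a like level.

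Markers of other glia and of vessels were also high in Maresin 1 replicate 1. The 8 astrocyte markers had a mean deviation of 0.18 in Maresin 1 replicate 1 and -0.05 and 0.02 in the other arrays of that group, -0.02 to 0.04 after surgery, and -0.19 to 0.03 in control. The 8 endothelial markers stood at 0.30, -0.09 and 0.15 with Maresin 1, 0.08 to 0.15 after surgery, and -0.27 to -0.21 in control. The 7 oligodendrocyte markers stood at 0.13, 0.02 and -0.08 with Maresin 1, -0.15 to 0.11 after surgery and -0.10 to 0.06 in control. All 3 lists had their highest value in Maresin 1 replicate 1, the array highest for 5 microglial genes. In surgery replicate 2 the same lists were at 0.03, 0.11 and -0.05, none of them its highest. Other lists had their highest value of the 9 arrays there. These included the border macrophage (0.16), monocyte (0.14) and neutrophil (0.10) markers and the 14 phagocytosis and Fc receptor genes (0.18). The lymphocyte markers were at -0.04 in that array. The summed intensity of the endothelial list was 2198 to 2959 with Maresin 1 and 2495 to 2650 after surgery, against 1908 to 2005 in control; those of the astrocyte list were 18710 to 21400 with Maresin 1, 19000 to 19990 after surgery and 17600 to 19470 in control. The part of these cells in the microglial values was not tested. The mean deviation of the 8 neuron markers lay between -0.06 and 0.05 in all 9 arrays, but single markers did not all follow it. Their differences between Maresin 1 and control ran from -0.135 to 0.205. Wholly below control were 2 of the 8, and 1 lay wholly above, where 14.3% of all genes did not overlap in either direction. The counts against surgery were the same (13% of all genes). The part of neurons in the values of other genes was not tested.

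**Figure D3:**
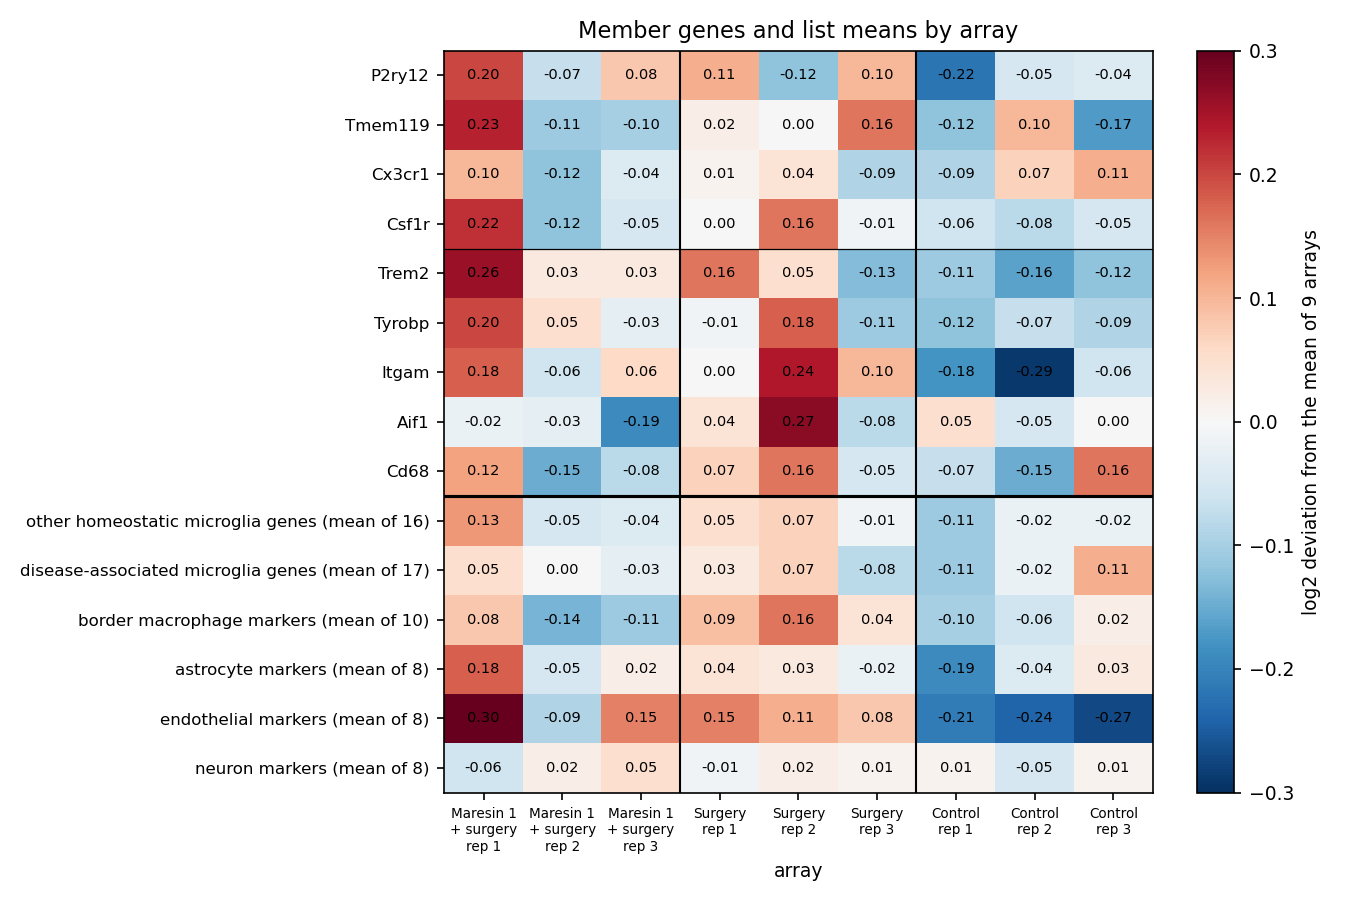
Deviation of each array from the mean of all 9 arrays (log2, colour and printed value) for the 9 genes, and for the mean of 6 comparison lists below the thick line. Columns are arrays, grouped as Maresin 1 with surgery, surgery and control; Maresin 1 replicate 1 is above 0 for 8 of the 9 genes and for the astrocyte and endothelial lists, and surgery replicate 2 is highest for Itgam, Aif1 and Cd68.

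Across the 9 arrays, 34 of the 36 pairs of member genes correlated positively, with a median Pearson r of 0.45. The arrays share one normalization, and these values are a description. The receptor Trem2 and its adaptor Tyrobp had the highest value (r = 0.793), followed by Csf1r with Tyrobp (0.789) and Csf1r with Itgam (0.768). P2ry12 and Tmem119 were each other's closest member (0.624). P2ry12 and Aif1 ran against each other (-0.475). The median was 0.46 within the homeostatic class, 0.52 within the activation class and 0.34 between the classes, and Csf1r, placed in the homeostatic class, had its 4 highest values with activation genes. With group means removed the order changed. Tyrobp with Aif1 then had the highest value (0.861). Trem2 with Tyrobp, at 0.639, stood below several pairs, among them Csf1r with Tyrobp and Itgam with Cd68 (0.809 each).

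Of 13354 other genes above background, those whose pattern over the 9 arrays was most like the mean of the 9 members were Tlr13, an endosomal sensor of bacterial ribosomal RNA (r = 0.951), Cyba, a subunit of the NADPH oxidase (0.95), Ppp1r3c, which targets a phosphatase to glycogen (0.949), and Unc93b1, which carries Toll-like receptors to endosomes (0.949). Lamb2, a laminin chain (0.941), Ndrg2 (0.94), Shd (0.939) and Pld4, an endolysosomal nuclease (0.937), came next. For the activation genes alone the closest were Irf8, a transcription factor of myeloid cells (0.967), Cth (0.957) and Alox5ap, the 5-lipoxygenase activating protein (0.948). For the homeostatic genes alone they were Nfatc1 (0.944), Fcgrt, the neonatal Fc receptor (0.944), and Papss2 (0.939). Such values are the highest of many and are given for their order only.

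The ligands and partners of the members comprised 12 measured genes, of which none was called in any comparison. Between surgery and control 9 were higher and 3 lower (median 0.076). Tgfb1, the growth factor that maintains microglial identity, stood at 7.34, 7.45 and 7.42 after surgery and 7.20, 6.93 and 7.31 in control, without overlap (log2 0.26, SE 0.12). Icam1, an adhesion ligand of complement receptor 3, differed by 0.29 (SE 0.16) with overlap. Of the 12, 7 were higher than in control replicate 1 alone (median 0.082), with Tgfb1 at 0.20 and Icam1 at 0.33.

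With Maresin 1, 9 of these 12 were lower than after surgery alone (median -0.086). Itgb2, the CD18 chain that pairs with Itgam in complement receptor 3, was at 6.70, 6.42 and 6.25 with Maresin 1 and 6.78, 6.80 and 6.72 after surgery, without overlap (log2 -0.31, SE 0.13, limma adjusted p = 0.859). Its partner Itgam differed by -0.053 in the same arrays. Tgfb1 differed by -0.26 (SE 0.12) with overlap.

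Against control, 7 of the 12 were lower with Maresin 1, and the 2 with the smallest p were ligands of member receptors. Cx3cl1, the fractalkine that binds Cx3cr1, was at 10.90, 10.93 and 10.99 with Maresin 1, against 11.07, 11.12 and 11.07 in control (log2 -0.15, SE 0.045, limma adjusted p = 0.217). Il34, the neuronal ligand of Csf1r, was at 8.58, 8.48 and 8.61 with Maresin 1, against 8.85, 8.65 and 8.78 in control (log2 -0.20, SE 0.072, limma adjusted p = 0.292). Neither ligand overlapped with control, while the receptors Cx3cr1 and Csf1r did. In all 3 of the 12 lay wholly below control and 0 wholly above, where 14.3% of all genes did not overlap in either direction. The third was Hcst, below background, at -0.19 (SE 0.13). Csf1, the other ligand of Csf1r, differed by 0.100 (SE 0.069). Cx3cl1 was at -0.14 and Il34 at -0.29 against control replicate 1 alone, with 6 of the 12 lower (median -0.0154).

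The remaining homeostatic microglia genes numbered 16. Of these 14 stood higher after surgery than in control (median 0.064), with Slc2a5, a fructose transporter (0.26), and the ectonucleotidase Entpd1 (0.18) at the smallest p and without overlap. With Maresin 1, 6 were higher and 10 lower than after surgery (median -0.027). Tgfbr1, a receptor chain for transforming growth factor beta, differed by 0.16 without overlap and Slc2a5 by -0.18. Against control 12 were higher (median 0.072), with Tgfbr1 at 0.18 and Entpd1 at 0.16. All 16 were higher than in control replicate 1 alone, both after surgery (median 0.13) and with Maresin 1 (median 0.14), where 60.4% and 54.5% of all genes were. None of the 16 was called in any comparison.

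Genes of the disease-associated microglial state, in which Trem2 signalling takes part, stood differently by which controls were used. Of 17 measured, 12 lay above background. Cd52, Ch25h, Itgax, Clec7a and Cst7 lay below it, and they enter the counts and medians given here. Of the 17, 10 were higher and 7 lower after surgery than in control (median 0.013). Cd9, a tetraspanin, was at 8.19, 8.06 and 7.96 after surgery and 8.24, 8.38 and 8.41 in control, without overlap (log2 -0.28, SE 0.095, limma adjusted p = 0.708), and the lysosomal protease Ctsd differed by -0.16. With Maresin 1, 11 were higher and 6 lower than after surgery (median 0.022), with Cd9 at 0.23 and Ch25h, below background, at -0.24. Against control 7 were higher and 10 lower (median -0.0455). Apoe, a lipid carrier and ligand of Trem2 that astrocytes also make, was at 12.77, 12.70 and 12.68 with Maresin 1 and 12.50, 12.56 and 12.65 in control (log2 0.15, SE 0.042, limma adjusted p = 0.197), and Ctsd differed by -0.14. Against control replicate 1 alone 12 of the 17 were higher and 5 lower in both comparisons, with medians of 0.17 after surgery and 0.16 with Maresin 1, so control replicates 2 and 3 decided the sign of the Maresin 1 median. Cd9 was then at -0.18 and Ctsd at -0.0485 after surgery, and Apoe was at 0.22 and Ctsd at -0.026 with Maresin 1.

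Of 14 phagocytosis and Fc receptor genes, 13 stood higher after surgery than in control (median 0.085), with the Fc receptor genes Fcgr3 at 0.34 (SE 0.12, limma adjusted p = 0.739) and Fcgr2b at 0.27. These belong to a family of similar sequence. With Maresin 1, 10 of the 14 were lower than after surgery (median -0.067). The lysosomal membrane protein gene Lamp2 was at 0.10 and the scavenger receptor gene Cd36, below background, at -0.12. Against control 10 were higher (median 0.10), with Fcgr3 at 0.23 and the complement gene C1qb at 0.14. The sizes of Fcgr3, Fcgr2b and C1qb against control rested in part on control replicates 2 and 3. Fcgr3 was at 7.29 and 7.29 there, against 7.62 in control replicate 1. Against control replicate 1 alone Fcgr3 differed by 0.12 and Fcgr2b by 0.16 after surgery. The median of the 14 genes after surgery was no smaller against that array, at 0.12 with all 14 higher. With Maresin 1, Fcgr3 differed by 0.00802, C1qb by 0.070 and the 14 genes by a median of 0.057 (11 higher).

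Of 6 microglial transcription factor genes, 5 were higher after surgery than in control, with Irf8 at 0.17 and Runx1 at 0.17. With Maresin 1, 4 were lower than after surgery, with Runx1 at -0.12 and Spi1, which encodes PU.1, at -0.12. Against control 4 were higher, with Mef2a at 0.077 and Irf8 at 0.11. The mean level of Mef2a with Maresin 1 was 11.07, against 6.90 for Irf8 and 6.64 for Spi1. Which cells of the bulk tissue the Mef2a signal came from was not tested. None had an unadjusted p under 0.05 in any comparison. With control replicate 1 alone as control, Irf8 was at 0.20 and Runx1 at 0.13 after surgery, and Irf8 at 0.13 and Mef2a at 0.039 with Maresin 1, with list medians of 0.12 and 0.0275.

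Antigen presentation and costimulation genes were mostly dim, with 2 of 8 above background. Their medians were 0.080 for surgery against control, -0.036 for Maresin 1 against surgery and 0.029 for Maresin 1 against control, and 0 of them had an unadjusted p under 0.05 in any comparison. The named pairs were H2-Eb1 and H2-Aa (-0.15 and 0.15 after surgery, 0.12 and -0.17 with Maresin 1 against surgery) and Cd86 and Ciita (0.10 and 0.073 with Maresin 1 against control). Against control replicate 1 alone the list medians were 0.23 after surgery and 0.18 with Maresin 1, with H2-Eb1 at -0.044 and H2-Aa at 0.34 after surgery and Cd86 at 0.20 and Ciita at 0.082 with Maresin 1. All 7 proliferation genes measured lay below background, so microglial proliferation was not detectable in these values. Aurkb differed by 0.22 and Top2a by 0.13 between surgery and control. Birc5 differed by -0.31 and Aurkb by -0.23 between Maresin 1 and surgery. Birc5 differed by -0.29 and Mki67 by 0.068 between Maresin 1 and control. None of the 7 was called in any comparison. With Maresin 1, 3 of the 7 lay wholly below surgery, where 13% of all genes did not overlap in either direction. In bulk tissue these values cannot be assigned to a cell type. Set against control replicate 1 alone, Aurkb was at 0.16 and Top2a at 0.060 after surgery, and Birc5 at -0.23 and Mki67 at -0.088 with Maresin 1.

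Border macrophages, of the meninges and vessels, share Itgam, Csf1r, Cx3cr1, Aif1 and Cd68 with microglia. Of their 10 markers, 9 were higher after surgery than in control (median 0.11), where 58.4% of all genes were. Wholly above control were 4 of the 10, where 7.71% of all genes were. All 10 were lower with Maresin 1 than after surgery (median -0.14), where 41.7% of all genes were higher. Of these, 2 did not overlap, where 13% of all genes did not overlap in either direction. Between Maresin 1 and the whole control group, 5 were higher and 5 lower (median 0.0033, 0 without overlap), where 49% of all genes were higher. Of the 10, 9 were higher than in control replicate 1 alone after surgery (median 0.18) and 7 with Maresin 1 (median 0.058). Of all genes 60.4% and 54.5% were. Their summed intensity was 486 to 599.1 with Maresin 1, 578.2 to 673.2 after surgery and 520.9 to 572.7 in control, and 6 of the 10 lay below background. The part of these cells in the member values was not tested. For monocyte, neutrophil and lymphocyte markers the medians between surgery and control were 0.094, 0.085 and 0.069 (0.026, 0.15 and 0.185 against control replicate 1 alone), and between Maresin 1 and surgery -0.067, -0.044 and 0.013, with no gene of these lists called.

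**Figure D4:**
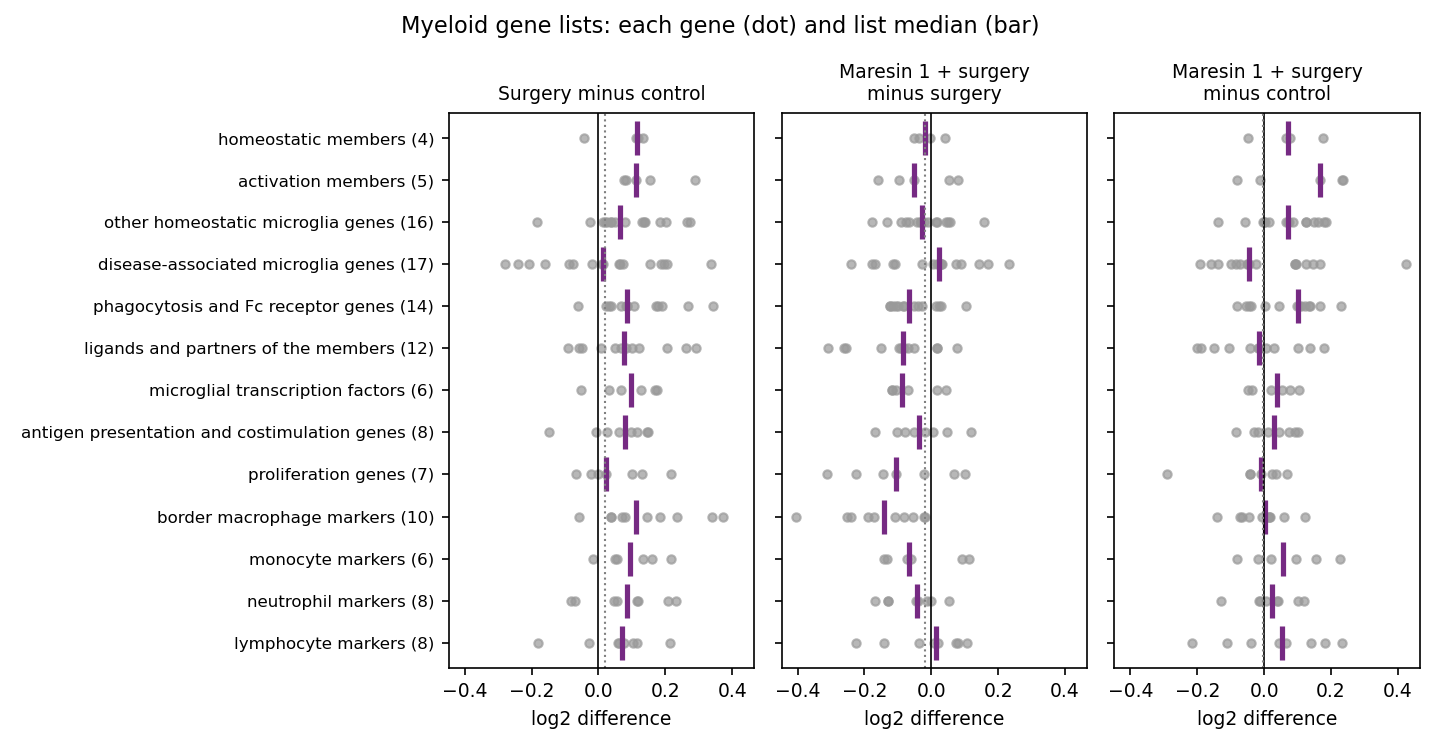
Log2 difference of each gene (grey dots) and the list median (purple bars) for the 9 members by class and 11 other myeloid, immune and proliferation lists, with the number of genes measured in brackets, in the 3 comparisons. The dotted line is the median of all genes; the medians of both member classes lie right of it for surgery and for Maresin 1 against control, and at or left of it for Maresin 1 against surgery.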

How the data were processed

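Signals were measured on an Affymetrix mouse gene array, 1 hippocampus array per sample, from 6 µg of total RNA per the labels' protocols. The deposited values are linear intensity per probe set for 35556 probe sets, for which the submitters' processing notes name Affymetrix Expression Console; algorithm, version and genome build: not given in the sources used here. Deposited medians differ between arrays, so the analysed values are log2 of the quantile-normalized intensity plus 16. Of the probe sets, 21218 name 1 gene, 1881 several and 12457 none in the probe table; 21185 matched by gene ID. The highest-mean probe set stood for each of 18820 genes.

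Groups came from the titles. limma 3.58.1 in R 4.3.3 was fitted to all genes and all 9 arrays with a trended prior, two-sided, with p adjusted by Benjamini-Hochberg over all genes; a gene was called at an adjusted p under 0.05. Intervals are 95% and come from this model. Array number, 3 per group, limits precision. Named genes are the 9 members, the 2 genes of smallest p per list and comparison, and the nearest genes by correlation. Members and lists were chosen with earlier results of these data known. The pipeline was tested on simulated data. Alternatives comprised other scalings, added constants of 1 and 64, a background filter, averaged probe sets, other fits, and arrays left out. Promoters are from RefSeq, GRCm38.p6, where 6 members had one. A planned search of member proteins was not run.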

Additional observations from a re-analysis of the deposited data

How the results depend on the processing

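No member gene was called in any comparison under any of the alternatives, 504 values over 27 member results. Of these values 30 changed sign. The differences concerned ran from -0.053 (Tmem119) to 0.0796 (Trem2), both between Maresin 1 and surgery. The cause of the sign changes was not tested except where an array left out is named. Under scaling of every array to one median, the surgery minus control median was 0.274 for homeostatic and 0.238 for activation genes, against 0.101 for all genes and 0.164 for genes at a level of 8 to 10, and Cx3cr1 was at 0.12; between Maresin 1 and surgery the homeostatic median was -0.144, P2ry12 -0.0873, Trem2 -0.0294 and Tyrobp -0.0396, against -0.0887 for all genes and -0.127 at like levels; between Maresin 1 and control Cd68 was at 0.0197. Without normalization Aif1 was at -0.0475 between surgery and control. Against control replicate 1 alone Cx3cr1 was at 0.0773 after surgery and 0.0741 with Maresin 1, and Cd68 at 0.0379 with Maresin 1.

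Leaving out 1 array at a time gave these ranges. For surgery against control, the activation median ran from 0.0338 (without surgery replicate 2) to 0.176, Aif1 from -0.0191 to 0.154, Cd68 from 0.0189 to 0.173 and Csf1r from 0.0573 to 0.143. For Maresin 1 against surgery, the homeostatic median ran from -0.1 to 0.0393, the activation median from -0.111 to 0.0116, P2ry12 ran from -0.0329 to 0.113, Tmem119 from -0.165 to 0.0052, Cx3cr1 from -0.0631 to 0.0475, Csf1r from -0.137 to 0.0311, Tyrobp from -0.0102 to 0.133 and Itgam from -0.111 to 0.0116. For Maresin 1 against control, the homeostatic median ran from -0.0348 (without Maresin 1 replicate 1) to 0.134, Tmem119 from -0.0455 to 0.15, Cx3cr1 from -0.107 to 0.00381, Csf1r from -0.024 to 0.144 and Cd68 from -0.0905 to 0.0776.

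Over all genes, surgery against control called 0, 37 with arrays scaled to one median, 42 without normalization, and 0 to 169 with 1 array left out, 169 being without control replicate 1. Maresin 1 against control called 16 genes (13 higher, 3 lower), 38 with scaling (5 higher, 33 lower), 43 without normalization (2 higher, 41 lower), 0 without a trended prior, 0 with only those groups in the fit, and 4 against control replicate 1 alone. With 1 array left out it called 0 to 245: 245 without control replicate 1, 15 without control replicate 3, 3 and 2 without surgery replicates 1 and 2, and 0 without control replicate 2, surgery replicate 3 or any Maresin 1 array. With the replicate number as a block it called 0, and surgery against control and Maresin 1 against surgery 0 each; the block changed no call of a member. Replicate numbers did not pair the samples: correlations of same-numbered deviations ran from -0.244 to 0.055. Maresin 1 against surgery called 0 throughout. Aif1 lies barely above background, and the 7 proliferation genes and 6 of 8 antigen presentation genes lie below it, where the added 16 makes log2 differences smaller.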
